A study of Mus musculus with 6 samples.

Results

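The classical MHC class I presentation pathway was examined in mouse breast tumors through 10 genes, *H2-K1*, *H2-D1*, *B2m*, *Tap1*, *Tap2*, *Tapbp*, *Psmb8*, *Psmb9*, *Psmb10* and *Nlrc5*, of the 18460 genes listed in at least 1 tumor. The genes were chosen by name for their part in the pathway. Class I molecules display peptides from inside the cell on its surface, where CD8+ T cells can read them. The proteasome cuts proteins into peptides, the TAP transporter moves the peptides into the endoplasmic reticulum, and a loading complex fits them into a heavy chain paired with beta-2 microglobulin. Interferon gamma is the best known inducer of the pathway, and tumors of many kinds differ widely in how much of it they express.

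Tumors came from female BALB/c mice whose PyMT oncogene, driven by the MMTV promoter, gives rise to breast tumors. Mice of both groups were Rag1KO, and so had no T or B cells of their own, while myeloid and NK cells remain in such hosts. Mice of both groups had received naive CD4+ T cells, sorted from the spleens of wild-type donors, at 4 weeks of age, and tumors were taken at the endpoint between 18 and 20 weeks. The 3 test tumors (Tslp-PyMt tg Rag1KO with CD4+ T cells) also carried K14-TSLPtg, which drives thymic stromal lymphopoietin from a keratinocyte promoter, and the 3 control tumors (PyMt tg Rag1KO with CD4+ T cells) did not. Each tumor was from a separate mouse. The authors deposited an expected count, which estimates the reads of a gene, and an FPKM, which divides it by gene length and sequencing depth. Control replicates 1, 2 and 3 had totals of 9249064, 8908390 and 9090055 expected counts, and test replicates 1, 2 and 3 had 8373390, 8571403 and 9449565.

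The labels were checked against the transgene and the tissue. Control replicates 1, 2 and 3 held 2, 2 and 3 counts of *Tslp*, and test replicates 1, 2 and 3 held 12, 7 and 2. Test replicate 3 was thus at the level of the control tumors, and no higher than a floor of 3 counts, below which a level could not be told from 0 at this depth. The transgene is driven from a keratinocyte promoter, so *Tslp* in tumor RNA checks the label only in part, and differences of the 10 genes and of their subunit ratios are also given without the library labelled test replicate 3. *Rag1* had between 4 and 27 counts per tumor, and counts over the whole transcript do not show whether the deleted part was read. *Krt14*, whose promoter drives the transgene, was at 8.72, 35.5 and 62.3 FPKM in control replicates 1, 2 and 3 and at 27.1, 67.4 and 69.8 FPKM in test replicates 1, 2 and 3. Test replicate 3, at the control level of *Tslp*, was thus not low in *Krt14*, and its low *Tslp* was not explained. The epithelial marker *Krt18* was at 335 FPKM or more in every tumor.

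The class I genes differed far more among tumors of one group than between the groups. All 10 were lower in control replicate 2 than in control replicate 1, by 2.85-fold for *Psmb10* up to 10.6-fold for *B2m* on the scale of CPM (expected counts scaled to a common library size by edgeR's TMM method). Control replicate 1 had the highest FPKM of 8 of the 10 genes and test replicate 3 that of the other 2, *Psmb8* and *Nlrc5*. Control replicate 2 had the lowest FPKM of 9 genes, and test replicate 2 that of *Nlrc5*. These 3 exceptions were near ties, and in CPM control replicate 1 was the highest and control replicate 2 the lowest tumor for all 10 genes. The groups overlapped for every one of the 10 genes.

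**Figure D1:**
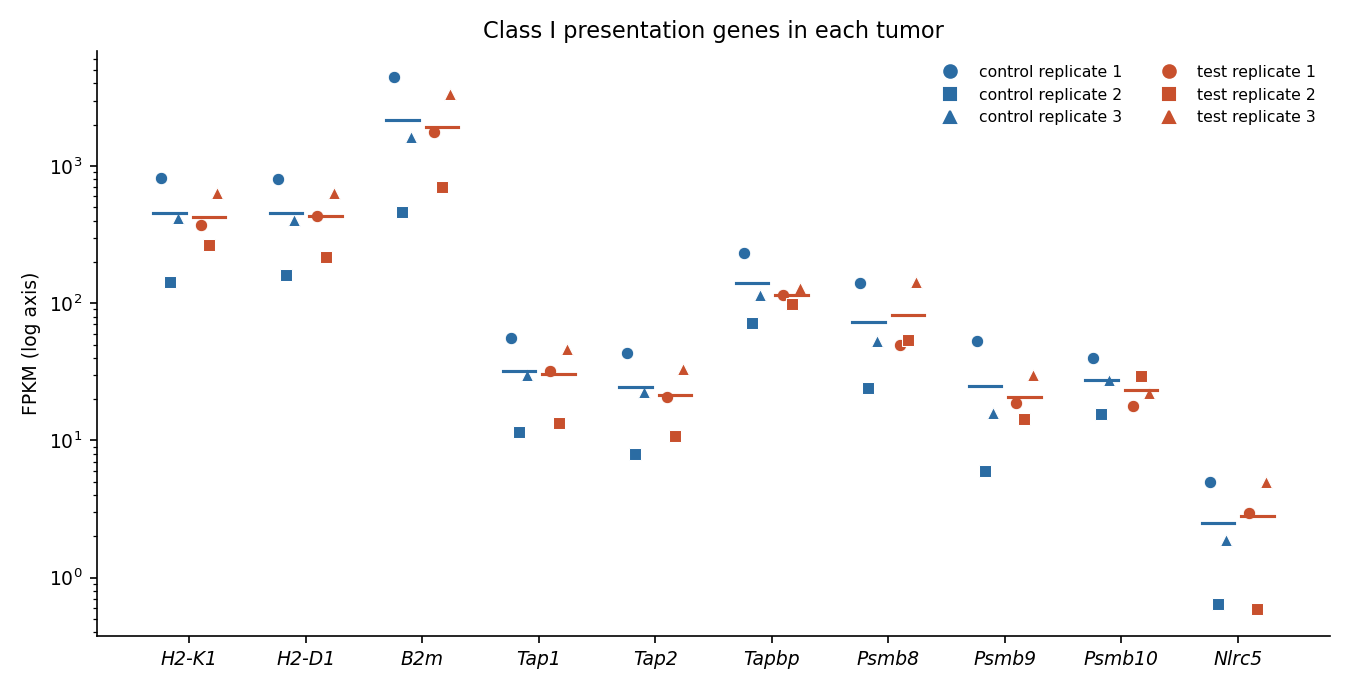
FPKM on a log axis of the 10 class I presentation genes in each of 3 control (blue) and 3 test (orange) tumors, with a marker for each replicate and a line for the mean of each group. Control replicate 1 and test replicate 3 lie high and control replicate 2 lies low for most genes, and the groups overlap for all 10.

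Heavy chains and their partner were the most abundant of the 10 genes. *H2-K1* (NCBI Gene 14972, chromosome 17, 33996012 to 34000619 of GRCm38), a classical heavy chain, was at 813, 142 and 416 FPKM in control replicates 1, 2 and 3 and at 374, 267 and 635 FPKM in test replicates 1, 2 and 3. *H2-D1* (NCBI Gene 14964, chromosome 17, 35263094 to 35267497), another classical heavy chain, was at 799.6, 161 and 405 FPKM in control and at 433, 216 and 639 FPKM in test replicates 1, 2 and 3. For both heavy chains control replicate 1 was the highest tumor, test replicate 3 came next and control replicate 2 was the lowest. *B2m* (NCBI Gene 12010, chromosome 2, 122147687 to 122153082), which encodes the light chain without which heavy chains do not reach the surface in a stable form, was at 4429, 465 and 1614 FPKM in control and at 1783, 708 and 3323 FPKM in test replicates 1, 2 and 3. Its tumors stood in the same order as those of *H2-D1*, over a wider range.

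The ratio of *H2-K1* to *H2-D1* in FPKM stayed between 0.864 and 1.23 in the 6 tumors, while the FPKM of *H2-K1* covered 5.72-fold and that of *H2-D1* 4.97-fold. The ratio of *B2m* to *H2-K1* ran from 2.65 in test replicate 2 to 5.45 in control replicate 1. These ratios were chosen after the values were seen and are given as a description. BALB/c mice carry the d haplotype of the MHC, whereas the mm10 reference comes from C57BL/6 with the b haplotype, and class I genes resemble each other closely. Reads could therefore be lost or assigned to a neighboring class I gene, the effect of which was not tested, and the levels of *H2-K1* and *H2-D1* are uncertain for that reason.

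Since these genes moved together across tumors, stretches of their upstream sequence are shown. RefSeq promoters on GRCm38.p6 were given for 8 of the 10 genes, with no entry for *Tap2* or *Nlrc5*. The following stretches of 30 bases lie from 111 to 82 bases before the start of *H2-K1* (chr17:34000429-34000458, minus strand) and from 171 to 142 bases before that of *H2-D1* (chr17:35262923-35262952, plus strand). The *H2-D1* stretch lies before the RefSeq span given above, within the first exon of a longer transcript in GENCODE, and the *H2-K1* stretch lies inside the RefSeq span, before the start used here. Capitals mark a kappa B form (GGGNNTTCC) and, after it, a short form of the interferon-stimulated response element (GAANNGAAA, here on the other strand).
H2-K1: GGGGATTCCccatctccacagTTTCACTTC
H2-D1: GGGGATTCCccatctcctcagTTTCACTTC
The stretches were identical at 29 of 30 bases. Both forms were present together in the 250 bases before the start of 90 of 27025 genes (0.333%), counting either strand and 1 start per gene, with 4.88% holding the first and 6.34% the second.

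The next sequence runs from 140 to 2 bases before the start of *B2m* (chr2:122147547-122147685, plus strand), within an intron of *Patl2* on the opposite strand. Capitals mark, in order, a longer form of the interferon-stimulated response element (GAAANNGAAA), a core of the X2 box (TGACG) and a Y box (CCAAT, here on the other strand).
B2m: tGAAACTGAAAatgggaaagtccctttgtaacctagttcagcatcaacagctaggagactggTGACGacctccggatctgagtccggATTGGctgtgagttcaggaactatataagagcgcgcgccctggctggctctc
The marked stretches do not overlap. The longer form was found for 3.04% of the 27025 genes and, of the 8 members, for *B2m* alone. The X2 core, present for 17.9% of genes, was found for *H2-K1*, *H2-D1*, *B2m*, *Tap1* and *Psmb9*, and the Y box, present for 34.5%, for those 5 genes and *Tapbp*. *Tap1* and *Psmb9* share their upstream bases, and each motif found for both is 1 site read from either side. The letters TTCNNNGAA of the gamma-activated site were found for 7.18% of genes and, of the members, for *Psmb8*. The motifs were chosen after the promoters had been seen, and a match describes letters and not a bound site.

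Peptide transport and loading were represented by *Tap1*, *Tap2* and *Tapbp*. *Tap1* (NCBI Gene 21354, chromosome 17, 34187556 to 34197225), a subunit of the peptide transporter, was at 55.5, 11.5 and 29.9 FPKM in control and at 32.0, 13.3 and 46.4 FPKM in test replicates 1, 2 and 3. *Tap2* (NCBI Gene 21355, chromosome 17, 34204479 to 34216321), the other subunit, was at 43.6, 7.91 and 22.5 FPKM in control and at 20.9, 10.8 and 33.0 FPKM in test replicates 1, 2 and 3. *Tap1* ordered the tumors as *H2-D1* did and *Tap2* as *H2-K1* did, and the ratio of *Tap1* to *Tap2*, also chosen after the values were seen, kept between 1.24 and 1.53. *Tapbp* (NCBI Gene 21356, chromosome 17, 33919478 to 33929290), or tapasin, which bridges the transporter and the heavy chain, was at 232, 72.0 and 115 FPKM in control and at 115, 98.2 and 129.96 FPKM in test replicates 1, 2 and 3. In FPKM its test tumors lay within 1.32-fold of each other, against 3.22-fold for its control tumors.

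The immunoproteasome subunits replace constitutive catalytic subunits of the proteasome and favor peptides that fit class I grooves. *Psmb8* (NCBI Gene 16913, chromosome 17, 34198195 to 34201454) was at 140.7, 24.1 and 52.9 FPKM in control and at 49.6, 53.8 and 143 FPKM in test replicates 1, 2 and 3. *Psmb9* (NCBI Gene 16912, chromosome 17, 34182030 to 34187330) was at 52.8, 6.01 and 15.7 FPKM in control and at 18.6, 14.2 and 29.8 FPKM in test replicates 1, 2 and 3. Control replicate 1 and test replicate 3 were again the highest tumors for both subunits, and control replicate 2 was the lowest. *Psmb10* (NCBI Gene 19171, chromosome 8, 105935728 to 105938392) was at 40.2, 15.6 and 27.3 FPKM in control and at 18.0, 29.7 and 22.1 FPKM in test replicates 1, 2 and 3. It was the member that varied least, and the only one for which test replicate 2 exceeded test replicate 3. The RefSeq starts of *Psmb9* and *Tap1* lie 226 bases apart on opposite strands, while in GENCODE, which has longer transcripts, exons of these genes share 212 bases. The strand of the libraries is not given in the sources used here, so reads from those bases cannot be told apart.

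*Nlrc5* (NCBI Gene 434341, chromosome 8, 94434335 to 94527272) encodes a transactivator of class I genes and was the least abundant of the 10. It was at 4.94, 0.64 and 1.89 FPKM in control and at 2.94, 0.59 and 4.98 FPKM in test replicates 1, 2 and 3, from 321, 40 and 121 counts in control and 173, 36 and 331 counts in test replicates 1, 2 and 3. Control replicate 1 and test replicate 3 were almost equal at the top, and replicate 2 of either group lay at the bottom. The fold range of *Nlrc5* over the 6 tumors, 8.59 on the CPM scale, was exceeded by those of *B2m* and *Psmb9* alone among the 10 genes.

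Averaged over the 6 tumors, FPKM placed the genes in the order *B2m* (2054), *H2-D1* (442), *H2-K1* (441), *Tapbp* (127), *Psmb8* (77.4), *Tap1* (31.4), *Psmb10* (25.5), *Tap2* (23.1), *Psmb9* (22.9) and *Nlrc5* (2.66). *B2m* exceeded both heavy chains, *H2-K1* exceeded *Tapbp*, *Psmb8* exceeded *Tap1* and *Psmb9* exceeded *Nlrc5* in 6 of 6 tumors. The order of *H2-D1* and *H2-K1*, and that of *Psmb10* and *Tap2*, held in 3 of 6 tumors, so neither pair differed beyond its spread. *Tap1* exceeded *Psmb10*, and *Tap2* exceeded *Psmb9*, in 4 of 6 tumors, and *Tapbp* exceeded *Psmb8* in 5 of 6.

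The comparison of test with control tumors asks whether class I presentation differs in tumors of mice whose keratinocytes make thymic stromal lymphopoietin. All 10 genes passed the filter on low counts, and 0 of 10 had an adjusted p of 0.05 or less in the quasi-likelihood test of edgeR, adjusted by Benjamini-Hochberg over all tested genes, against 0% of the 13706 genes tested (0 genes). An unadjusted p under 0.05 was reached by 0 of the 10 genes and by 8.41% of all tested genes (1153). The groups were without overlap for 0 of the 10 genes and for 12.0% of all tested genes (1642). Over all genes DESeq2 called 313, limma-trend on log2(FPKM + 1) called 1 and a pooled Poisson test, blind to the variation among tumors of a group, called 9578. Of the 10 genes DESeq2 and limma called 0, and the Poisson test called 9.

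By edgeR's log2 fold change 8 of the 10 genes were lower and 2 higher in test tumors, with a median of -0.18 beside 0.02 over all tested genes. *Tapbp* had the log2 fold change of largest size, -0.31 (standard error 0.46, 95% confidence interval -1.38 to 0.75, edgeR's adjusted p = 0.864). The log2 fold change of *B2m* was -0.22 (standard error 0.85, interval -2.18 to 1.75, edgeR's adjusted p = 0.957), with 2169 ± 2040 FPKM in control and 1938 ± 1315 FPKM in test tumors (SD, n = 3 each). For *H2-K1* the value was -0.14 (standard error 0.64, interval -1.62 to 1.34), with 457 ± 337 FPKM in control and 425 ± 189 FPKM in test tumors (SD, n = 3 each). *Psmb8* and *Nlrc5* were the genes on the other side of 0, at 0.14 (standard error 0.70) and 0.13 (standard error 0.88). Each interval included 0 and was wide, and that of *B2m* spanned from 0.220-fold to 3.36-fold, so that differences inside it were not detectable with these tumors. Exact two-sided permutation tests on log2(CPM + 0.5) gave p from 0.8 to 1 over the 10 genes, where 3 tumors against 3 cannot give a p below 0.1. These tests compare means of log2 levels, whereas edgeR compares mean levels fitted per group. The direction can therefore differ, and the permutation p-values do not test the fold changes above.

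**Figure D2:**
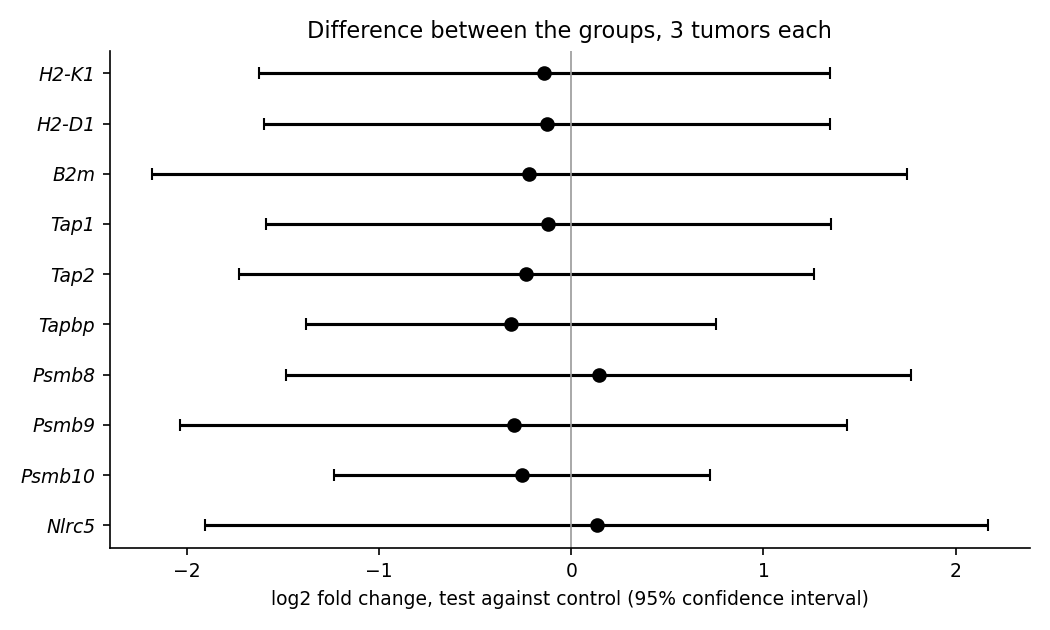
Log2 fold change of test against control tumors (3 each) for the 10 genes, with bars for the 95% confidence interval from edgeR's quasi-likelihood fit. Every interval includes 0, and the estimates run from -0.31 for *Tapbp* to 0.14 for *Psmb8*.

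Direction depended on single tumors. Without control replicate 1 all 10 genes were higher in test tumors, with a median log2 fold change of 0.65 and 0.94 for *B2m*. Without control replicate 2 all 10 were lower, with a median of -0.57, and 182 genes were called over the whole table, 0 of them members. Without the library labelled test replicate 3 all 10 were again lower, with -0.85 for *B2m* and -0.53 for *H2-K1*, and the lowest adjusted p of the 10 in edgeR's test was 0.801. Signs also differed with limma on log2 FPKM, where 7 of the 10 genes were higher in test tumors.

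**Figure D3:**
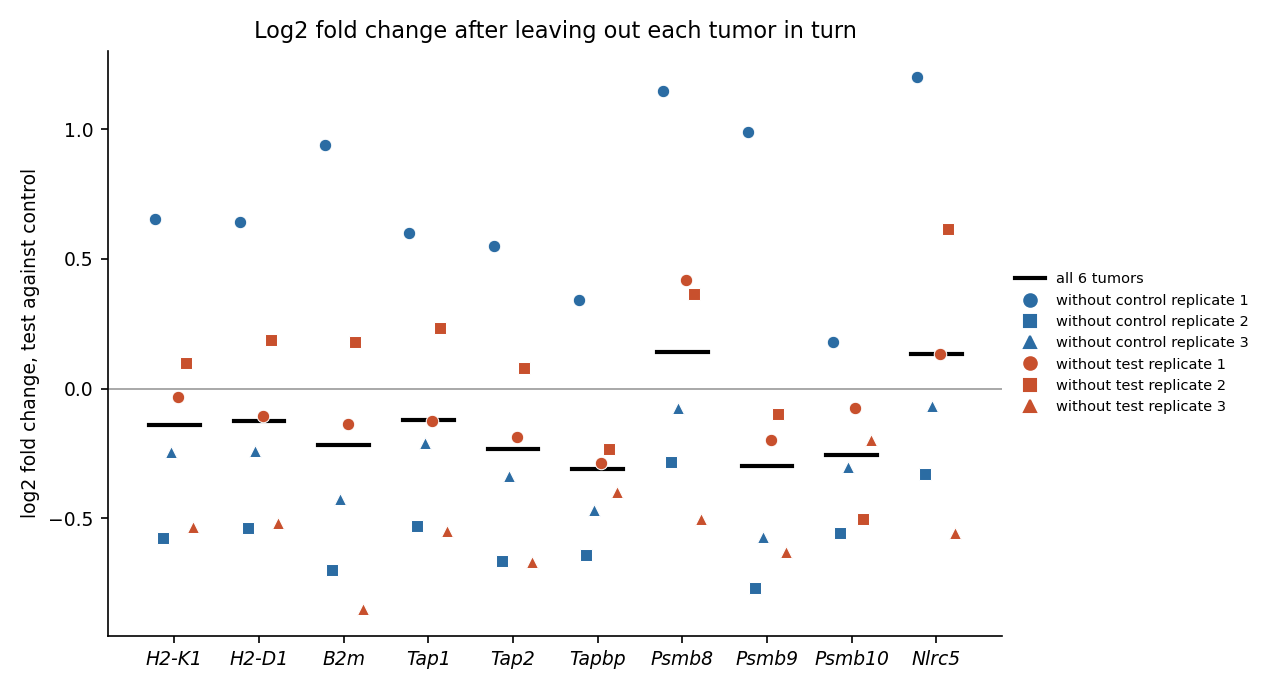
Log2 fold change of test against control tumors for each gene with all 6 tumors (black line) and after leaving out each tumor in turn (markers, colored by the group of the tumor left out). All 10 genes lie above 0 without control replicate 1 and below 0 without control replicate 2, control replicate 3 or test replicate 3.

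The spread within groups was large for these genes. The pooled SD of log2(CPM + 0.5) within groups had a median of 1.06 over the 10 genes, beside 0.45 over all tested genes. It exceeded that of 69.2% of tested genes for *Psmb10*, 74.8% for *Tapbp* and 90.7% or more for each of the other 8, up to 97.1% for *Nlrc5*. Each gene's log2 level was centered on its mean over the tumors, and the 10 were averaged. Control replicates 1, 2 and 3 then stood at 1.24, -1.33 and -0.03, and test replicates 1, 2 and 3 at -0.01, -0.59 and 0.72. In whole tumors a smaller share of expressing cells and less RNA per cell cannot be told apart.

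The subunits that the immunoproteasome replaces did not share this order of tumors. *Psmb5* was at 38.5, 64.9 and 49.8 FPKM in control and at 45.4, 94.4 and 56.5 FPKM in test replicates 1, 2 and 3. *Psmb6* ran from 70.9 FPKM in control replicate 1 to 211 FPKM in test replicate 2, and *Psmb7* from 88.9 to 173 FPKM in the same tumors. Control replicate 1, the tumor with most *Psmb9* and *Psmb10*, was thus the lowest for all 3 constitutive subunits. Their log2 fold changes of 0.39, 0.46 and 0.31 had standard errors of 0.36, 0.41 and 0.28, and none passed the test (adjusted p from 0.785 to 0.787 in edgeR's quasi-likelihood test).

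FPKM ratios of an immunoproteasome subunit to the constitutive subunit it replaces varied more widely still. *Psmb8* to *Psmb5* was 3.66, 0.372 and 1.06 in control and 1.09, 0.570 and 2.54 in test replicates 1, 2 and 3. The immunoproteasome transcript was thus the more abundant of the pair in 4 of 6 tumors and the less abundant in replicate 2 of either group. *Psmb9* to *Psmb6* was 0.744, 0.0465 and 0.157 in control and 0.202, 0.0673 and 0.307 in test replicates 1, 2 and 3, a range of 16.0-fold. *Psmb10* to *Psmb7* was 0.452, 0.122 and 0.226 in control and 0.161, 0.172 and 0.177 in test replicates 1, 2 and 3, with test tumors close together inside the range of the control tumors. Exact two-sided permutation tests on the log2 ratios gave p = 0.9, 1 and 0.7 for the 3 pairs, and 1 for each after Benjamini-Hochberg adjustment over the 3. The differences in mean log2 ratio, test minus control, were 0.04, -0.13 and -0.45 in that order. Without control replicate 1 they were 0.89, 0.91 and 0.03, without control replicate 2 they were -0.76, -1.09 and -0.91, and without the library labelled test replicate 3 they were -0.52, -0.59 and -0.48. The sign for *Psmb8* to *Psmb5* turned without control replicate 2, control replicate 3 (-0.002) or test replicate 3, that for *Psmb9* to *Psmb6* without control replicate 1 or test replicate 2 (0.50), and that for *Psmb10* to *Psmb7* without control replicate 1.

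**Figure D4:**
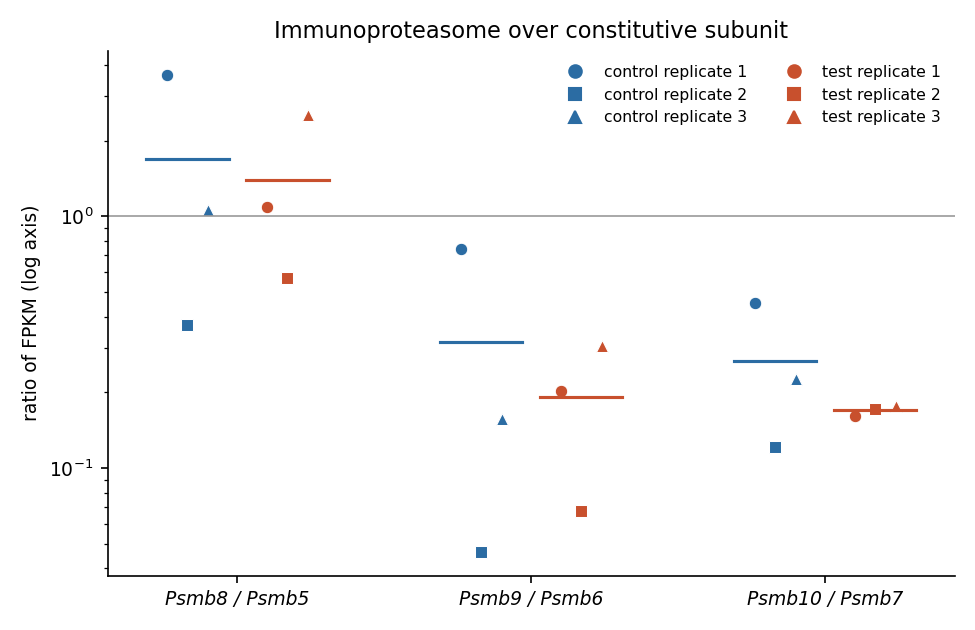
FPKM of each immunoproteasome subunit divided by that of the constitutive subunit it replaces, on a log axis, in each of 3 control (blue) and 3 test (orange) tumors, with a line for the mean of each group and a grey line at a ratio of 1. The ratio of *Psmb8* to *Psmb5* runs from 0.372 to 3.66, both in control tumors, and the groups overlap for all 3 ratios.

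Of 59 other genes of the pathway, 58 were tested and 0 had an adjusted p of 0.05 or less in edgeR's quasi-likelihood test, with 29 higher and 29 lower in test tumors. In the peptide loading and trimming list 1 of 5 genes was higher and 4 were lower, with a median log2 fold change of -0.17. *Erap1*, the peptidase that trims peptides in the endoplasmic reticulum, was at 44.4, 15.5 and 25.9 FPKM in control and at 17.3, 10.8 and 17.5 FPKM in test replicates 1, 2 and 3 (log2 fold change -0.94, standard error 0.43, edgeR's adjusted p = 0.629). Control replicate 1 was highest for *Erap1* too, but test replicate 3 was level with test replicate 1. For the chaperone *Canx*, which holds new heavy chains, and for *Tapbpl*, a relative of tapasin, the values were -0.51 (standard error 0.31) and -0.17 (standard error 0.35).

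Among proteasome activators 2 of 4 genes were higher and 2 lower, and the log2 fold changes of *Psme2*, *Psme4* and *Psme3* were 0.29, -0.37 and -0.23 with standard errors of 0.28, 0.36 and 0.28. *Psme2*, part of the interferon-inducible activator PA28, kept between 85.4 and 139.9 FPKM in all tumors. All 12 other genes of the 20S proteasome core and its assembly had positive log2 fold changes, with a median of 0.37, but none passed the test. The groups did not overlap for 1 of the 12, *Psma6*, and for 3 of the 58 other pathway genes tested, beside 12.0% of all tested genes. The log2 fold change of *Psma6* was 0.72 (standard error 0.33, edgeR's adjusted p = 0.635). *Psma1* and the assembly factor *Pomp* had log2 fold changes of 0.51 and 0.59 (standard errors 0.32 and 0.39). Test replicate 2 held the highest FPKM of all 12, and control replicate 1 the lowest of *Psma1*, *Psma6* and *Pomp*. The summed FPKM of all tested genes was also highest in test replicate 2, at 626580 against 506500 or less in each other tumor. The shared direction of the 12 genes thus rests in part on 1 tumor.

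Nonclassical and other class I heavy chains had 3 genes higher and 11 lower of 14 tested, with a median log2 fold change of -0.16. The 3 with the smallest unadjusted p were *Mr1*, which presents vitamin B metabolites, *Cd1d1*, which presents lipids, and *Fcgrt*, the neonatal Fc receptor, with log2 fold changes of -0.56, -0.39 and -0.54 (standard errors 0.38, 0.45 and 0.66). *Cd1d1* was at 4.3, 9.1 and 12.4 FPKM in control and at 8.59, 6.74 and 4.0 FPKM in test replicates 1, 2 and 3, so its lowest tumors were those with most *B2m*. *H2-Q6* was listed at 0 in control replicate 3, and *H2-Q7* in replicate 2 of either group, while the other of the pair was at 3.92 to 13.9 FPKM there. These nearly identical genes share reads, so their separate levels are uncertain.

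Regulators of class I genes and of the interferon gamma response had 8 genes higher and 12 lower of 20 tested, with a median log2 fold change of -0.05. *Ifng* itself had 1 count, in control replicate 1, and 0 in each other tumor, below the floor of 3 counts. The 3 genes with the smallest unadjusted p were the receptor chain *Ifngr1* (log2 fold change 0.49, standard error 0.23, edgeR's adjusted p = 0.640), the feedback inhibitor *Socs1* (-1.48, standard error 0.77, adjusted p = 0.670) and *Nfya* (-0.55, standard error 0.30, adjusted p = 0.685), a subunit of the factor that binds the Y box. *Ciita*, the class II counterpart of *Nlrc5*, was at 1.19 FPKM or less in every tumor.

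*Irf1* and *Irf9*, which carry interferon signals to the genome, were singled out after their values were seen. *Irf1* was at 38.8, 8.81 and 22.1 FPKM in control and at 15.0, 12.4 and 17.9 FPKM in test replicates 1, 2 and 3. *Irf9* was at 42.4, 13.7 and 27.2 FPKM in control and at 35.8, 22.9 and 50.2 FPKM in test replicates 1, 2 and 3. Both were low in control replicate 2 and high in control replicate 1, as the class I genes were, and *Irf9* was highest in test replicate 3. Of the same list *Irf2* was instead lowest in test replicate 2 (5.54 FPKM), and *Irf8* was highest in control replicate 3 (6.47 FPKM) and lowest in test replicate 1 (1.89 FPKM). For *Irf1* and *Irf9* the log2 fold changes were -0.65 and 0.35 (standard errors 0.52 and 0.47).

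The genes most like the 10 were found by Pearson correlation, over the 6 tumors, of log2(CPM + 0.5) with the mean of the 10 centered genes, among 13696 other tested genes. The 6 highest were *H2-K2* (0.993), *H2-Q10* (0.993), *H2-Q4* (0.990), the class I-like *LOC547349* (0.988), *Gbp2* (0.988) and *Irgm2* (0.988), with Spearman's rho between 0.943 and 1. After the tumors farthest from the median, control replicates 1 and 2, were left out, the correlation was between 0.944 and 0.990 over the remaining 4. That of *Irf9* was 0.946 over all 6 and 0.942 over those 4, and that of *Irf1* fell from 0.907 to 0.54. *H2-K2*, *H2-Q10*, *H2-Q4* and *LOC547349* resemble the classical heavy chains in sequence, and reads shared with them could add to the likeness. *Gbp2*, a guanylate-binding protein, and *Irgm2*, an immunity-related GTPase, are of other families, and *Gbp2* was at 49.4, 6.53 and 16.6 FPKM in control and at 20.1, 12.9 and 41.8 FPKM in test replicates 1, 2 and 3. The lowest correlations were those of *Slc47a1* (-0.996), *Kcnab3* (-0.983) and *Eefsec* (-0.980), and *Slc47a1* was at 0.37 FPKM in control replicate 1 and 15.4 FPKM in control replicate 2. With so many genes and 6 tumors, high values arise easily, and the correlations are descriptions of these tumors.

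**Figure D5:**
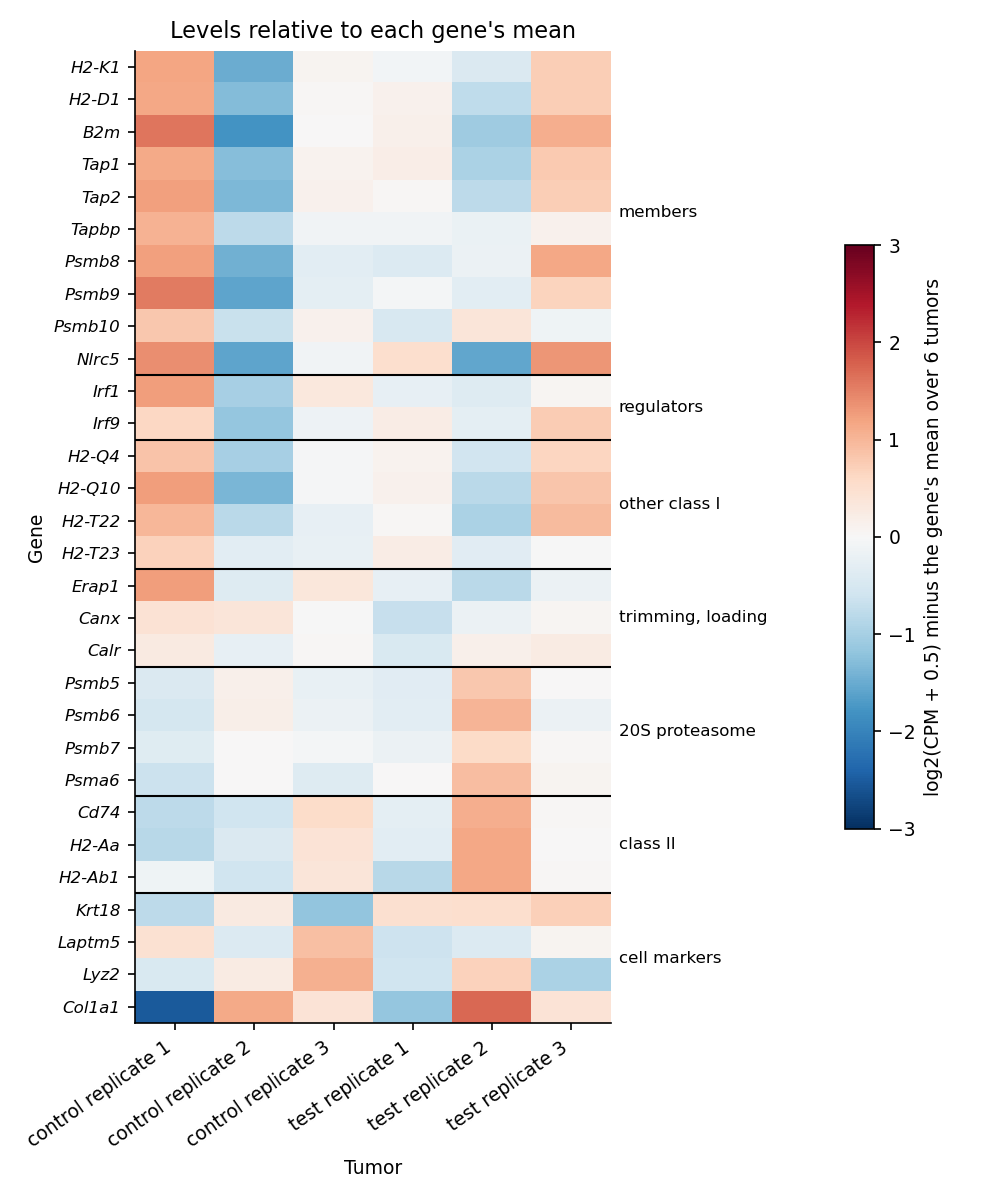
Log2(CPM + 0.5) of each gene minus its mean over the 6 tumors, from blue (below) to red (above), for the 10 class I genes (members) and for genes of the other lists, some picked after their values were seen. Control replicate 1 and test replicate 3 are above and control replicate 2 is below the mean for most class I genes and *Irf9*, and the 20S proteasome and class II genes drawn are below their mean in control replicate 1 and above it in test replicate 2.

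Markers of the cells that can carry these genes were read in the same tumors, and their part in the class I levels was not tested. MHC class II genes, which professional antigen-presenting cells express, summed to 262, 303 and 621 FPKM in control and to 333, 895 and 444 FPKM in test replicates 1, 2 and 3, with *Cd74* the most abundant. Test replicate 2, low in class I genes, was thus the highest in class II genes. The 5 pan-leukocyte markers, led by *Laptm5*, summed to 128, 82.0 and 144 FPKM in control and to 49.1, 116 and 115 FPKM in test replicates 1, 2 and 3. The 8 macrophage markers, led by *Lyz2*, summed to 527, 527 and 1004 FPKM in control and to 399, 946 and 474 FPKM. Control replicate 1, highest for most class I genes, exceeded control replicate 2, lowest for most, in 5 of 5 pan-leukocyte markers and 6 of 8 macrophage markers. The macrophage sums of these tumors were nearly equal through *Lyz2*, at 128 FPKM in control replicate 1 and 227 FPKM in control replicate 2. Both sums were nonetheless highest in control replicate 3 and lowest in test replicate 1, in the middle of the order for class I genes.

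Lymphocyte markers were at low levels. The 7 T cell markers, led by *Cd247*, summed to 6.62, 6.35 and 7.55 FPKM in control and to 10.5, 9.75 and 6.85 FPKM in test replicates 1, 2 and 3. *Cd247* alone was at 7.29 FPKM in test replicate 1. Of the 4 T cell markers tested, 3 were higher and 1 lower in test tumors by log2 fold change. The lower was *Cd4* (-0.75, standard error 0.55), with 9 to 35 counts per tumor. Both CD8 T cell markers together, with *Cd8a* leading, summed to 0.06, 0.27 and 0.25 FPKM in control and to 0.84, 0.78 and 0.41 FPKM in test replicates 1, 2 and 3. *Cd8a* had between 1 and 13 counts per tumor, and neither marker passed the filter on low counts, so the difference was not tested. The 4 B cell markers, led by *Cd79b*, summed to 1.53 FPKM or less, and *Ms4a1* had 0 counts in every tumor. The 6 NK cell markers, led by *Gzma*, summed to 3.34, 1.27 and 2.89 FPKM in control and to 2.36, 6.3 and 2.22 FPKM, and the 6 dendritic cell markers, led by *Itgax*, to 11.04, 5.26 and 14.8 FPKM in control and to 5.13, 6.73 and 13.2 FPKM in test replicates 1, 2 and 3. The dendritic cell sum was mostly *Itgax*, at 9.73 FPKM in control replicate 1 and 12.09 FPKM in test replicate 3, while each of the other 5 markers was at 1.06 FPKM or less in every tumor.

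Epithelial markers were higher in test tumors for 7 of 7 genes, led by *Krt18*, and did not overlap between the groups for 4, beside 12.0% of all tested genes, although none had an adjusted p of 0.05 or less in edgeR's test. They summed to 1158, 2473 and 1096 FPKM in control and to 3238, 3132 and 3277 FPKM in test replicates 1, 2 and 3. Control replicate 1 had the most class I transcript and one of the lower epithelial sums, while test replicate 3 was high in both. Fibroblast markers, led by *Col1a1*, summed to 228, 631 and 416 FPKM in control and to 372, 1016 and 409.9 FPKM in test replicates 1, 2 and 3. The sum was lowest in control replicate 1 and highest in replicate 2 of either group, but 2 of the 6 markers, *Dcn* (77.8 against 33.2 FPKM) and *Lum* (15.8 against 14.6 FPKM), were higher in control replicate 1 than in control replicate 2. Endothelial markers, led by *Pecam1*, summed to between 25.1 and 36.3 FPKM. Skeletal muscle markers, led by *Acta1*, summed to 4.67, 103 and 3.25 FPKM in control and to 497, 115 and 59.4 FPKM in test replicates 1, 2 and 3, and adipocyte markers, led by *Cfd*, to 0.27, 6.31 and 2.88 FPKM in control and to 229.9, 49.8 and 1.62 FPKM. Muscle and fat markers were highest in test replicate 1, whose class I genes lay in the middle of the 6 tumors.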

How the data were processed

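The submitters' notes name mm10, Bowtie, BWA and RSEM without versions. The deposited values are, per gene, an expected count without normalization and an FPKM that the authors scaled by gene length and depth. Genes absent from a tumor's list were set to 0. Of 18460 gene identifiers, 18400 matched RefSeq on GRCm38 directly, 6 matched through a transcript and 54 did not match. Expected counts were rounded and fitted in R 4.3.3 with edgeR 4.0.16 (filterByExpr, TMM, quasi-likelihood test, 3 test against 3 control tumors, no covariate), with adjustment over all tested genes, and the code was checked on simulated data. Alternatives were RLE scaling, DESeq2 1.42.0, 2 other filters, limma-trend 3.58.1 on log2 FPKM, a replicate block, a pooled Poisson test and leaving out each tumor. The floor of 3 counts covers counting error only.

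The members and lists were chosen with earlier results of these data known. Named genes were the 10 members, the constitutive subunits, of each other pathway list the genes passing the test or otherwise the 3 with the smallest unadjusted p, of each marker list its most abundant gene and genes at 0 in every tumor, *Tslp*, *Rag1* and *Krt14*, and the 6 genes most and 3 least correlated with the members. Others are marked as chosen after their values were seen, or are named only as examples of uncertain or low counts. Some genes of these lists are not reported here.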

Additional observations from a re-analysis of the deposited data

How the results depend on the processing

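No member was called by edgeR under RLE scaling, either other filter or the replicate block, by DESeq2, by limma-trend or with any tumor left out, and none of the 59 other pathway genes was. The pooled Poisson test, which leaves out the spread between tumors, called 9 members, 45 of the other pathway genes and 9578 genes in all, where DESeq2 called 313 and limma-trend on log2(FPKM + 1) called 1. Poisson log2 fold changes of the called members were -0.083 for *H2-K1*, -0.064 for *H2-D1*, -0.13 for *B2m*, -0.17 for *Tap2*, -0.28 for *Tapbp*, 0.21 for *Psmb8*, -0.24 for *Psmb9*, -0.25 for *Psmb10* and 0.22 for *Nlrc5*.

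Signs turned, with no call, for 5 members with limma-trend, which averages log2 FPKM over the tumors of a group. With limma-trend at pseudocounts of 1 and 0.1 the log2 fold changes were 0.131 and 0.133 for *H2-K1*, 0.065 and 0.066 for *H2-D1*, 0.11 with either for *B2m*, 0.011 and 0.015 for *Tap1*, and 0.18 and 0.22 for *Psmb9*. Plain means of FPKM were lower in test than in control tumors for all 5, at 425 against 457 for *H2-K1* and 1938 against 2169 for *B2m*. The sign thus differed between means of FPKM and means of log2 FPKM. Same-numbered tumors had correlations of deviations from the group means of -0.03, 0.12 and -0.14, so the numbers do not pair the tumors, and of the control tumors replicate 2 alone correlated best with its own number. With the replicate block 0 genes were called, and 6 members turned sign, with 0.17 for *H2-K1*, 0.089 for *H2-D1*, 0.16 for *B2m*, 0.03 for *Tap1*, 0.001 for *Tap2* and 0.26 for *Psmb9*.

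Leaving out each tumor in turn gave 0 to 182 genes called over the whole table and log2 fold changes from -0.58 to 0.66 for *H2-K1*, -0.54 to 0.64 for *H2-D1*, -0.85 to 0.94 for *B2m*, -0.55 to 0.60 for *Tap1*, -0.67 to 0.55 for *Tap2*, -0.64 to 0.34 for *Tapbp*, -0.51 to 1.15 for *Psmb8*, -0.77 to 0.99 for *Psmb9*, -0.56 to 0.18 for *Psmb10* and -0.56 to 1.20 for *Nlrc5*. Differences in log2 ratio ran from -0.76 to 0.89 for *Psmb8* to *Psmb5*, -1.09 to 0.91 for *Psmb9* to *Psmb6* and -0.91 to 0.033 for *Psmb10* to *Psmb7*. Counts of members ran from 36 to 34241 per tumor, above the floor of 3.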
